A study of Mus musculus with 23 samples.

Results

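Untreated MR-Cardio hearts were compared with untreated control hearts across all 21892 named genes of the array. MR-Cardio mice are transgenic animals that overexpress the mineralocorticoid receptor in cardiomyocytes. Control mice were non-transgenic. The samples were chosen by their labels, which put 7 of the 23 male mice of the series in the untreated MR-Cardio group and 5 in the untreated control group. The other 11 mice, 6 MR-Cardio and 5 controls, received aldosterone and are used in the last comparison. A duration of 7 days is labelled for all 23 mice, the untreated ones included. Neither group compared first received aldosterone, and the sources used here do not give the promoter of the transgene, the number of founder lines or the age of the mice. Each mouse gave 1 array of ventricular RNA, read as the log2 ratio of heart (Cy5) over pooled RNA of 5 mouse tissues, namely heart, liver, spleen, brain and kidney (Cy3).

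The mineralocorticoid receptor, encoded by Nr3c2, is a nuclear receptor that binds aldosterone and, with similar affinity, the glucocorticoids corticosterone and cortisol. Bound to hormone it enters the nucleus and acts on genes through DNA elements that the glucocorticoid receptor also recognises. Cardiomyocytes express it with little of the enzyme that inactivates glucocorticoids in kidney, so that glucocorticoids occupy much of the receptor in heart. It is best known for sodium transport in the distal nephron and, in heart, for its part in fibrosis and in the electrical changes that receptor antagonists reduce.

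The markers were mostly those of ventricle. The 12 markers of working cardiomyocytes had a median control log2 ratio of 2.04, and 8 atrial genes had one of −3.01. Myl7 (−4.84) and Sln (−5.27) were low, but the atrial gene Bmp10 (1.03) lay above the pool. The lowest correlation between any pair of the 12 untreated arrays was 0.889 over all probes. A measure of the arrays themselves ran with genotype. The slope of 10 spike-in probes, the ratios of added control transcripts on an array regressed on their mean over all 23 arrays, was 1.01 to 1.03 on the MR-Cardio arrays and 0.972 to 0.975 on the control arrays, with no overlap (exact permutation test, two-sided, p = 0.00253, the smallest that 7 against 5 hearts can give). The lowest probe ratio was −12.1 ± 0.55 (SD, n = 7) on the MR-Cardio arrays and −9.93 ± 0.23 (SD, n = 5) on the control arrays. Because every MR-Cardio array differs from every control array in this way, genotype and this array difference cannot be told apart, and it bears most on genes whose ratio lies far from 0. MR-Cardio arrays 3, 4 and 7 also had spike-in offsets (their mean against that of all 23 arrays) of −0.38, −0.50 and −0.34, against 0.17 to 0.28 on the other 4, and the overall counts and those of most gene lists are repeated without those 3.

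In all, 2978 of 21892 genes (13.6%) differed at an adjusted p under 0.05 in limma, with Benjamini-Hochberg adjustment over all genes. Of these, 1267 (5.79%) were higher and 1711 (7.82%) were lower in MR-Cardio hearts. Without MR-Cardio arrays 3, 4 and 7 and the 3 aldosterone arrays with such offsets, 456 genes rose and 580 fell. List counts given below without those arrays come from that fit. They are to be read against 456 and 580 of 21892 genes, and not against 5.79% and 7.82%. Most differences were small. The median rise among called genes was 0.58 and the median fall was −0.52 on the log2 scale, and 1335 of the called genes (44.8%) differed by less than 0.5. Large differences were mostly rises. At 1 log2 unit or more, 268 genes rose (1.22%) and 231 fell (1.06%), but at 2 or more 63 rose and 8 fell, and at 3 or more 24 rose and 1 fell. The median difference over all genes was −0.015. Every MR-Cardio heart lay above every control for 646 genes (2.95%) and below for 879 genes (4.02%), together 6.97%. Of the 63 rises of 2 log2 units or more, 51 separated the groups completely.

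The share of falls, counted with all 7 MR-Cardio hearts, differed with the level of a gene in control hearts relative to the pool. Of 389 genes with a control log2 ratio under −5, 38.6% fell and 3.34% rose, and of 1114 genes between −5 and −3, 27.7% fell and 5.30% rose. These are genes with far less transcript in heart than in the pool, and they include most transcripts typical of liver, brain and kidney. Between −1 and 1, which held 13626 genes, 4.50% fell and 5.39% rose. Of 4110 genes between 1 and 3, 9.08% fell and 5.11% rose, and over 3, 20 of 161 genes (12.4%) fell and 11 (6.83%) rose. Among the 11393 genes with a control ratio over 0, where heart RNA exceeds the pool, 603 rose (5.29%) and 835 fell (7.33%).

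**Figure D1:**
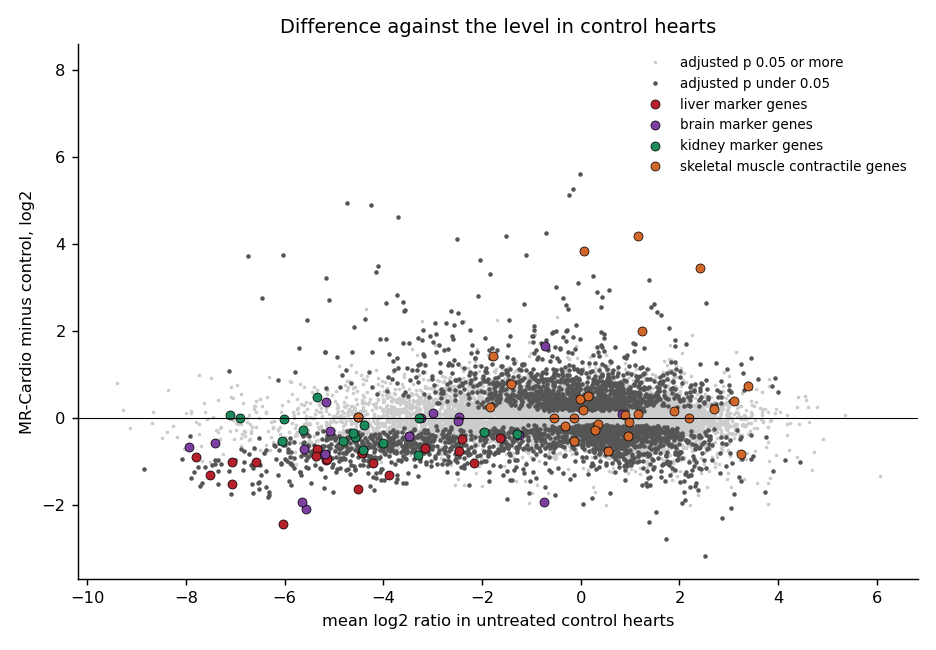
Difference between untreated MR-Cardio and control hearts (log2, vertical axis) against the mean log2 ratio in the 5 untreated control hearts (horizontal axis), 1 point per gene for 21892 genes; dark points have an adjusted p under 0.05, and coloured points are markers of liver (red), brain (purple) and kidney (green) and skeletal muscle contractile genes (orange). All 19 liver marker genes lie below 0, between −0.47 and −2.44, while the largest rises are spread over the whole range of control levels.

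The genes named with the contrast rose in all 7 MR-Cardio hearts. The log2 ratio of Nr3c2 was 0.55, 0.48, 0.18, 0.47 and 0.48 in the 5 controls and 3.80, 2.69, 2.75, 3.95, 4.15, 2.65 and 2.49 in MR-Cardio hearts 1 to 7. The groups did not overlap, and hearts 1, 4 and 5 carried more receptor transcript than the other 4. The array has 1 probe for Nr3c2, and the sources used here do not say whether it reads the transgene, the mouse gene or both. Fkbp5, a corticosteroid-induced partner of steroid receptor complexes, had ratios of −0.078, 0.13, −0.13, −0.0095 and −0.16 in controls and 3.45, 2.29, 2.91, 3.22, 3.72, 2.39 and 3.41 in MR-Cardio hearts. Its rise of 3.10 ± 0.25 (SE, log2, adjusted p = 3.37e-08) separated the groups, with the lowest values in MR-Cardio hearts 2 and 6. Cited1, a transcriptional coactivator that binds CBP and p300, showed 0.85, −0.44, −0.75, −0.097 and −0.34 in controls and 5.65, 4.35, 5.17, 5.18, 5.92, 4.07 and 5.49 in MR-Cardio hearts, again lowest in hearts 2 and 6. Each of the 3 genes gave p = 0.00253 in the exact permutation test over the 12 hearts. That is the smallest value possible, and any gene whose groups do not overlap reaches it (1525 genes, 6.97%). The rise of Nr3c2 goes with the choice of mice.

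The rises with the smallest p-values were those of genes of many functions, most of them near or below the level of the pool in control hearts. Kcnk1, a subunit of background potassium channels, stood at −4.81, −4.81, −5.54, −4.58 and −3.92 in controls and at −0.23 to 0.87 with a median of 0.25 in MR-Cardio hearts. The 30.9-fold rise (4.95 ± 0.31, SE, log2, adjusted p = 8.92e-10) brought a transcript far below the pool to about its level. Ffar4, which binds long-chain fatty acids at the cell surface, went from −0.17, −0.23, −0.71, −0.13 and 0.015 in controls to 3.90 to 5.41 with a median of 5.08. This rise of 5.12 ± 0.38 had an adjusted p of 1.26e-08, and 6 of the 7 MR-Cardio hearts lay over 4 log2 units. Nrl, a leucine zipper transcription factor known from rod photoreceptors, rose by 4.26 ± 0.29 (adjusted p = 3.43e-09), from −1.61 to −0.18 in controls to 3.16 to 4.15 in MR-Cardio hearts. Greb1, an oestrogen-responsive gene in human breast cancer cells, rose by 3.00 ± 0.24 (adjusted p = 3.71e-08), but its 2 probes rose by 1.55 and 4.46.

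Several of these genes encode enzymes and carriers. Pnmt, which converts noradrenaline to adrenaline, already exceeded the pool in controls (1.36, 1.49, 1.19, 2.01 and 0.89) and reached 4.43, 4.58, 4.54, 4.43, 5.23, 3.98 and 4.68 in MR-Cardio hearts. That rise of 3.17 ± 0.21 (8.97-fold, adjusted p = 3.43e-09) was among the most even, with an SD of 0.37 over the 7 hearts. Mthfd2, a mitochondrial enzyme of folate metabolism found mostly in growing cells, went from −1.52 ± 0.86 (SD, n = 5) to 2.67 ± 0.38 (SD, n = 7), an 18.2-fold rise. Slc25a18, a mitochondrial glutamate carrier, had ratios of −4.15, −3.10, −3.82, −4.11 and −3.33 in controls and 0.024 to 1.81 in MR-Cardio hearts, a rise of 4.63 ± 0.39 (SE, log2). Plpp4, a phospholipid phosphatase, rose by 4.12 ± 0.43 with values from 0.13 to 3.36, and it differed more between MR-Cardio hearts (SD 1.11) than between controls (SD 0.34). Comtd1, named for a catechol methyltransferase domain, rose less (1.31 ± 0.12) but as clearly, from −0.53 to −0.36 to 0.49 to 1.22.

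Signalling and adhesion genes were among the clear rises too. Dusp14, a phosphatase of MAP kinases, rose by 2.17 ± 0.18 (adjusted p = 4.13e-08), from −3.13 to −2.40 in controls to −1.25 to 0.091 in MR-Cardio hearts. Rasl10a, a small GTPase of the Ras family, rose by 2.63 ± 0.25, and Rasef, a Rab GTPase with calcium-binding EF hands, by 2.56 ± 0.47 (both SE, log2). Tal2, a basic helix-loop-helix factor, rose by 2.06 ± 0.24. Both Rasl10a and Tal2 lay above the pool in every heart of both groups. Ncam1, the neural cell adhesion molecule, rose by 1.58 ± 0.14, with its 3 probes rising by 0.41, 2.55 and 1.78. Insyn2a, a protein of inhibitory synapses, rose by 2.75 ± 0.24, and its 2 probes by 4.62 and 0.89. Of 28 measured feedback phosphatases and inhibitors of MAP kinases 4 rose (14.3%, against 5.79% of all genes) and none fell, and 1 rose without arrays 3, 4 and 7. The genes named from Kcnk1 to Insyn2a passed the test in every alternative in which they were tested, including the one without MR-Cardio arrays 3, 4 and 7.

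**Figure D2:**
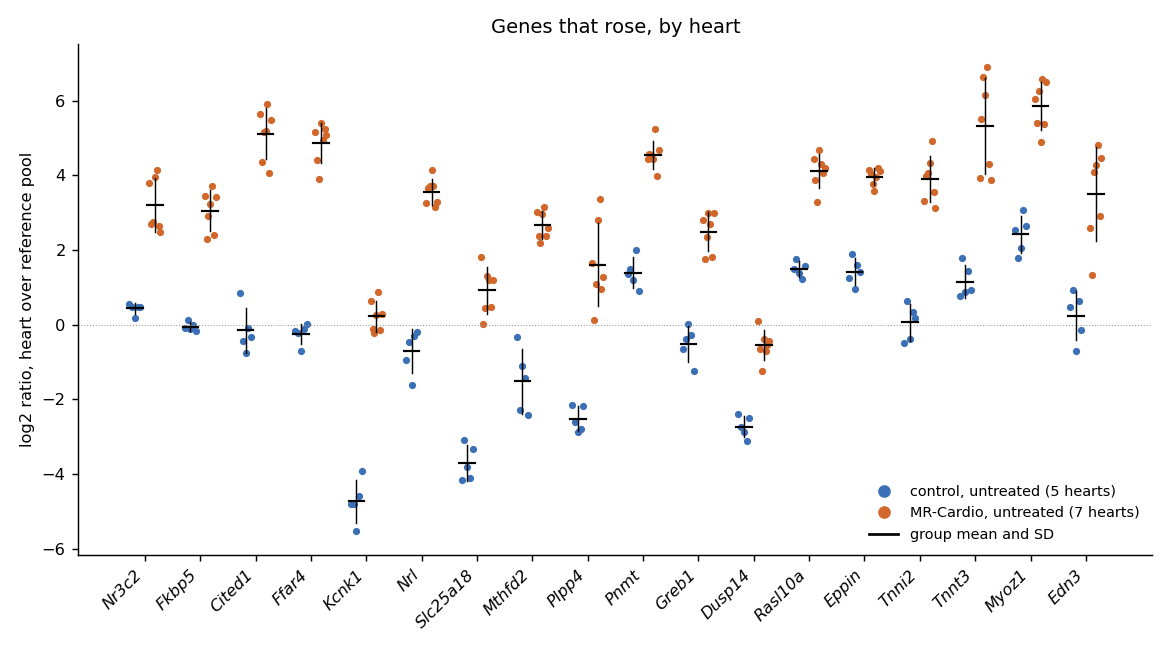
Log2 ratio of heart over reference pool in each untreated heart for 18 genes that rose; blue points are the 5 control hearts, orange points the 7 MR-Cardio hearts, black bars the group mean and SD. The groups are separate for each of the 18 genes, and Tnnt3, Edn3 and Plpp4 are the most variable of them among MR-Cardio hearts.

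The promoters of the rising genes were searched because the receptor binds a known element. The sequence searched was AGAACA, then any 3 bases, then TGTTCT, which reads alike on both strands, and a match counted when 10 or more of its 12 fixed letters were present. Of 41 rising genes named by size or by p-value, 31 had a window of 250 bases before to 50 bases after a gene start in the RefSeq table (build GRCm38.p6), and 2 of these 31 (6.45%) had such a match. Among all genes searched, 567 of 27025 genes (2.10%) had one. The best matches at Fkbp5 and Cited1 had 6 and 7 letters, and a match is a description of letters and not a site. The windows of both genes with a match are shown, 5′ to 3′ on the strand of the gene, with the 15 bases of the best match in capitals. Amy1 is on the minus strand, with windows at chr3:113574713-113575012 and chr3:113577701-113578000 for its 2 starts, and Eppin is on the minus strand at chr2:164593522-164593821.
Amy1 (first window): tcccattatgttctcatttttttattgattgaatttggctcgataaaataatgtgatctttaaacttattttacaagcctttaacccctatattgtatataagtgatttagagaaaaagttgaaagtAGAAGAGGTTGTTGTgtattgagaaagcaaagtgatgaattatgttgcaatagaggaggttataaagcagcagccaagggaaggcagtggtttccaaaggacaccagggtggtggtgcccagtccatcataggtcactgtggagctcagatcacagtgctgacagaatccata
Amy1 (second window): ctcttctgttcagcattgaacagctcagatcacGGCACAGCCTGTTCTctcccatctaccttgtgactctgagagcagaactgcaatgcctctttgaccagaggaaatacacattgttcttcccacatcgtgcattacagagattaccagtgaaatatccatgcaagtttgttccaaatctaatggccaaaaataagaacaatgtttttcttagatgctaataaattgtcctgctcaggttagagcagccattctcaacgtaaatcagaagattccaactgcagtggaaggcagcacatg
Eppin: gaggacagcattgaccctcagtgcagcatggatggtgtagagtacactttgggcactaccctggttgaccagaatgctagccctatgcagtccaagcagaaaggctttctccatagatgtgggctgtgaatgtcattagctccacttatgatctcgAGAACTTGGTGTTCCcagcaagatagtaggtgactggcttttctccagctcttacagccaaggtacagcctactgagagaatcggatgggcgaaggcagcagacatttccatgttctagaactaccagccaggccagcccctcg
Eppin encodes a protease inhibitor of the epididymis. Its match begins 94 bases before the gene start, and its ratios of 1.24, 1.90, 0.95, 1.60 and 1.42 in controls and 4.13, 4.03, 3.76, 3.58, 3.95, 4.21 and 4.11 in MR-Cardio hearts made one of the most uniform rises (2.54 ± 0.23, SE, log2, adjusted p = 1.40e-07). Amy1, the amylase of saliva and liver, has matches that begin 123 and 217 bases before its 2 starts. It went from −4.66, −3.52, −4.93, −4.40 and −3.78 in controls to 1.30, −0.93, 0.055, 1.30, 2.59, −0.86 and 1.00 in MR-Cardio hearts, with a gap of 2.59 log2 units between the groups.

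Other large rises came mostly from genes below the pool in control hearts, many of them far below it. Amy2a5, a pancreatic amylase closely related to Amy1, rose by 3.22 ± 0.56 from a control mean of −5.17, and its 2 probes rose by 2.15 and 4.29. Kallikreins of the Klk1b group, secreted serine proteases best known from salivary gland, rose from low or variable levels. Klk1b22 rose by 3.37 ± 0.71, Klk1b5 by 2.77 ± 0.67 and Egfbp2, of the same group, by 3.75 ± 0.77, each from a control mean under −4. Klk1b16 had control ratios of −4.23, 1.02, 1.53, 0.61 and 1.02 and MR-Cardio ratios of 7.39, 6.56, 6.51, 2.45, 5.19, 4.40 and 6.78, and Klk1b26 had −3.96, −1.39, −1.27, −1.99 and −1.65 and 2.41, 1.83, 1.90, 0.018, 2.10, 0.53 and 2.24. Control 1 was the lowest control for both. The 2 probes of Klk1b26 rose by 3.45 and 3.80 from control means of 1.83 and −5.94, so the averaged level is that of neither probe. The Klk1b and amylase genes have near-identical copies, so which copy a probe measured is uncertain. In MR-Cardio hearts 4 and 6 the Klk1b ratios were the lowest of the 7. Orm3, an acute-phase plasma protein, rose by 2.83 ± 0.24 (adjusted p = 8.32e-08) from −3.73, Sec14l4, a lipid transfer protein, by 3.72 ± 0.50 from −6.74, and Spatc1, a sperm centriole protein, by 3.50 ± 0.40 from −4.11. Mlph, which links melanosomes to myosin, rose by 3.75 ± 0.56, Zfp185 by 3.30 ± 0.49 and Tmem132b by 2.80 ± 0.31, with 3 probes of Tmem132b rising by 5.60, 0.59 and 2.20.

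Isoforms of skeletal muscle were among the largest rises of genes with more transcript in heart than in the pool. Of 28 measured contractile genes of fast and slow skeletal muscle, 6 rose (21.4%, against 5.79% of all genes), 2 fell (7.14%, against 7.82%) and 20 did not pass, with a median difference of 0.12. Without arrays 3, 4 and 7, 5 rose and 0 fell. Tnnt3, the fast troponin T, had ratios of 0.76, 1.79, 0.87, 1.44 and 0.92 in controls and 3.92, 5.50, 6.64, 6.14, 6.90, 4.31 and 3.87 in MR-Cardio hearts. Hearts 3 and 5 were the highest and hearts 1, 6 and 7 the lowest, all of them above the controls. Tnni2, the fast troponin I, went from −0.50 to 0.64 to 3.11 to 4.92, and Myoz1, which binds calcineurin at the Z-disc of fast fibres, from 2.53, 1.80, 2.05, 3.07 and 2.66 to 6.05, 5.41, 6.25, 4.89, 6.57, 5.38 and 6.51. Their rises were 3.84 ± 0.37 and 3.44 ± 0.35 (SE, log2, adjusted p = 4.73e-07 and 1.03e-06). Myl6b, a myosin light chain, rose by 0.78 ± 0.15, a call lost without arrays 3, 4 and 7. The working cardiomyocyte markers had 0 rises, 2 falls and a median difference of −0.027 over 12 genes. The 2 that fell were Pln (−0.62 ± 0.18), the inhibitor of the calcium pump, and Atp2a2 (−0.43 ± 0.14), the pump, and both calls were lost without arrays 3, 4 and 7 and without any one of controls 2 and 5 and MR-Cardio hearts 3 and 5, among others.

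Further rises at heart level were in secreted, metabolic and matrix genes. Edn3, which encodes the vasoactive peptide endothelin 3, had control ratios of 0.46, 0.93, −0.69, 0.63 and −0.13 and MR-Cardio ratios of 2.58, 1.32, 4.08, 4.28, 4.83, 2.91 and 4.48. All MR-Cardio hearts exceeded the controls, with heart 2 only just above them. Lox, the enzyme that cross-links collagen, rose by 2.95 ± 0.42 (adjusted p = 6.20e-05), from −0.24 to 1.37 to 2.47 to 4.2, and its 2 probes rose by 2.38 and 3.52. Ccdc15, a coiled-coil protein, rose by 2.89 ± 0.55 and Nxf3, of a family of RNA export factors, by 2.36 ± 0.46, with no overlap between groups for either gene. Nmrk2, a nicotinamide riboside kinase of muscle that feeds NAD synthesis, did overlap. It had 1.64, 3.01, 3.21, 1.81 and 3.00 in controls and 4.59, 2.84, 7.29, 6.60, 7.02, 2.45 and 5.51 in MR-Cardio hearts, so that hearts 2 and 6 lay within the control range and heart 3 exceeded it by over 4 log2 units. Mmp3, a matrix protease, rose by 2.43 ± 0.72, with controls that themselves ran from −0.66 to 4.05. The calls of Nmrk2 and Mmp3 were lost with the 12 untreated hearts alone in the fit and without arrays 3, 4 and 7.

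Several falls at heart level were uneven among the MR-Cardio hearts. Meig1, known for its part in sperm formation, had control ratios of 2.90, 2.10, 2.58, 3.18 and 1.79 and MR-Cardio ratios of 0.75, 2.09, −2.46, −2.14, −3.14, 1.68 and −1.51. Heart 1 lay below the controls, heart 2 within their range and heart 6 just below it, whereas hearts 3, 4, 5 and 7 were all under −1. Eprn (−2.78 ± 0.56) and Sun3 (−2.17 ± 0.52), a nuclear envelope protein, were likewise lower in hearts 3, 4, 5 and 7 than in hearts 1, 2 and 6. Tspan10 (−1.99 ± 0.49), a tetraspanin, was lowest in hearts 4, 5 and 7. Scn4b, an accessory subunit of cardiac sodium channels, stood at 1.60, 1.21, 1.09, 1.87 and 1.16 in controls and at 0.11, 1.21, −1.77, −2.60, −3.62, 1.25 and −1.62 in MR-Cardio hearts. Hearts 2 and 6 lay at the level of the controls, heart 1 below every control and the other 4 further below. The difference of Scn4b was −2.39 ± 0.62 (adjusted p = 0.0124), a call lost with the 12 untreated hearts alone. The calls of all 5 of these genes were lost without arrays 3, 4 and 7. So were those of Prss55, Defb19 and Hs3st5, with log2 differences of −1.90 ± 0.52, −1.84 ± 0.52 and −1.72 ± 0.53 (SE), and that of Armc2 (−1.70 ± 0.42).

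A few falls were uniform. Cnga1, a cyclic nucleotide-gated channel subunit of rod cells, was 2.08, 1.96, 2.29, 1.72 and 2.39 in controls and 0.30, 0.55, 0.57, −0.35, −0.22, 0.72 and 1.13 in MR-Cardio hearts, a fall that separated the groups (−1.70 ± 0.32, SE, log2, adjusted p = 0.00113). The olfactory receptor genes Olfr165 and Olfr780 differed by −1.49 ± 0.15 and −1.51 ± 0.26 (SE, log2). Every MR-Cardio heart lay below every control for both. The MR-Cardio values of Olfr165 (−0.33 to 0.30) were near the median control ratio of all olfactory receptor genes (−0.17), and single-channel signals were not used here, so whether either probe was above background was not tested. Ddx4, an RNA helicase of germ cells, and Rpe65, the retinoid isomerase of retinal pigment epithelium, had control ratios that ran from −0.19 to 3.04 and −0.093 to 2.32, against −1.0 to −0.090 and −0.47 to 0.45 in MR-Cardio hearts. Their calls were lost without control 1 or control 3. Oog4, an oocyte gene, was highest in control 4, with 0.95 to 1.91 in the other controls, and its call was lost without it and in most other settings.

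**Figure D3:**
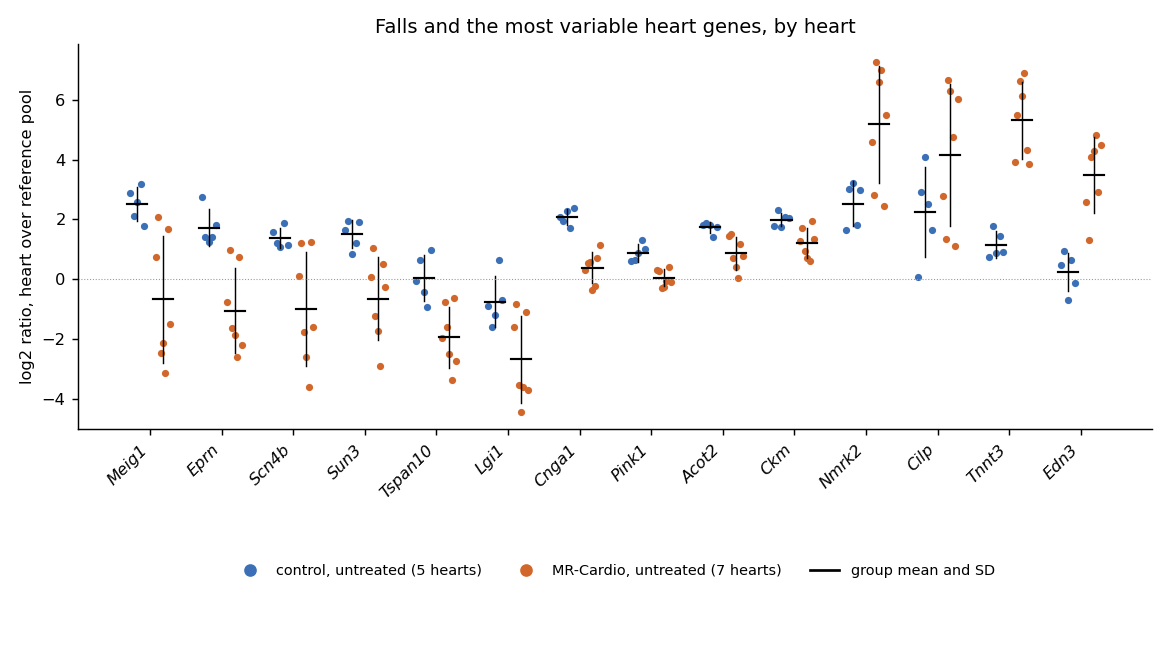
Log2 ratio in each untreated heart for 10 genes that fell, for Nmrk2, Tnnt3 and Edn3, which rose, and for Cilp, which varied without passing the test; blue points are the 5 controls, orange points the 7 MR-Cardio hearts, black bars the mean and SD. Meig1, Eprn, Scn4b and Sun3 spread over 3 to 6 log2 units among MR-Cardio hearts, whereas Cnga1 and Pink1 keep within 2.

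The 10 falls with the smallest p-values were all of genes typical of liver, a tissue of the reference pool. Apof, an apolipoprotein, had ratios of −5.90, −6.24, −6.14, −6.14 and −5.76 in controls and −8.53, −8.94, −8.45, −8.55, −8.28, −8.05 and −8.55 in MR-Cardio hearts, a difference of −2.44 ± 0.13 (SE, adjusted p = 9.39e-11). Apon (−1.70 ± 0.074), Fgl1 (−1.50 ± 0.085), Mup18 (−1.43 ± 0.10), Fgg (−1.32 ± 0.092), Cyp2c29 (−1.31 ± 0.068), Serpinc1 (−1.23 ± 0.091), Serpina1d (−1.19 ± 0.084), Plg (−1.16 ± 0.080) and Apom (−0.97 ± 0.057) differed as evenly, from control means between −7.52 and −3.98. All of them encode plasma proteins, urinary proteins or drug-metabolising enzymes made mainly by hepatocytes.

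Every one of the 19 measured liver markers fell, with a median of −0.97, against −0.015 over all genes. Their median control ratio was −5.14, and of all genes 38.6% fell under −5 and 27.7% between −5 and −3. Markers of the other pool tissues fell in part. Of 17 brain markers 7 fell (41.2%, median −0.38), of 17 kidney markers 6 (35.3%, −0.33) and of 14 markers of spleen and blood 4 (28.6%, −0.12). None rose in any of the 4 lists. The median control ratios of these 3 tissues were −3.49, −4.58 and −3.29, and 27.7% of all genes between −5 and −3 fell. Of these markers, 10 of 17 for brain, 15 of 17 for kidney and 7 of 14 for spleen and blood had a mean ratio under −3. Falls were rarer among all genes at higher levels, for example 9.87% between −3 and −1. The 27.7% is therefore no matched background for these mixed lists, and whether their shares exceed a matched one was not tested. Dner, a neuronal Notch ligand, Gad1, which makes GABA, and Syt13, a synaptotagmin, were examples of falls. They differed by −2.10 ± 0.25, −1.93 ± 0.31 and −1.78 ± 0.27 (SE, log2), from control means of −5.57, −5.65 and −6.31. The kidney gene Slc22a6, an organic anion transporter, differed by −0.86 ± 0.10 (SE, log2) from −3.30. With each array divided by its spike-in slope, the medians became −0.67 (liver), −0.20 (brain), −0.12 (kidney) and 0.074 (spleen, blood). All 19 liver genes still passed, and the brain and kidney lists kept 3 falls each. After quantile normalization the brain median was 0.00094 and that of spleen and blood 0.083, both on the other side of 0. A lower ratio of such a gene may be less transcript in heart or a difference between arrays at very low ratios, among other causes. These were not tested and cannot be told apart here. The 37 cytochrome P450 genes that fell, of 94 measured, call for the same caution, since the median control ratio of the family was −3.12. So do the hepatic protease inhibitors Serpina1a (−1.05 ± 0.085) and Serpina1e (−1.0 ± 0.085), from −4.21 and −4.32, which have near-identical copies.

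In most metabolic lists a few single genes moved. Of 21 measured genes of serine, glycine and folate metabolism Mthfd2 alone rose and 5 fell (23.8%, against 7.82% of all genes), 3 without arrays 3, 4 and 7. Mthfd1, a cytosolic enzyme of the same cycle, differed by −0.36 ± 0.082. Gldc, of the glycine cleavage system (−0.56 ± 0.11), is made mainly in liver and had a control mean of −3.51, in the range where genotype and the array difference cannot be told apart. The integrated stress response list, which holds targets of the transcription factor ATF4, had 2 rises and 2 falls among 23 (1 and 0 without those arrays). Slc7a5, a carrier of large neutral amino acids, rose by 1.25 ± 0.14, and Cth, which makes cysteine, differed by −1.11 ± 0.26 from a low control mean of −3.04. Of 28 amino acid transporters 4 rose and 4 fell (3 and 1 without them). In glucose metabolism Igf1r, the receptor for insulin-like growth factor 1, rose by 0.88 ± 0.14 and Pdk3, a kinase that inhibits pyruvate dehydrogenase, by 1.39 ± 0.29, and the glycogen targeting subunit Ppp1r3c rose by 0.78 ± 0.13. Pgk1, of glycolysis, rose by 0.42 ± 0.089, with every MR-Cardio heart above every control. In lipid metabolism Gpat4, an acyltransferase of triglyceride synthesis, rose by 0.46 ± 0.076, and the thioesterases Acot7 and Acot2 differed by −0.48 ± 0.086 and −0.86 ± 0.22 (SE, log2). The calls of Mthfd1, Cth, Pdk3 and Acot2 were lost without arrays 3, 4 and 7.

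Detoxifying enzymes split in both directions. Of 35 measured enzymes of steroid, drug and aldehyde metabolism 6 rose and 7 fell, that is 17.1% and 20.0% against 5.79% and 7.82% of all genes, 3 and 3 without arrays 3, 4 and 7. Sult1a1, a sulfotransferase of phenols, had MR-Cardio ratios of 1.44, 0.70, 0.33, 0.82, 1.02, 0.84 and 1.21 against −1.18 to −0.51 in controls and rose by 1.72 ± 0.25 (adjusted p = 7.46e-05). Gstm2, a glutathione transferase, rose by 0.84 ± 0.17. Nqo1, a quinone reductase, went from 1.04 to 1.37 in controls to 0.56, 0.84, −0.057, −0.069, −0.77, 0.69 and 0.092 in MR-Cardio hearts, lowest in heart 5, a call lost without arrays 3, 4 and 7. Aldh3a2, an aldehyde dehydrogenase, differed by −0.47 ± 0.067. Of 29 iron and haem genes 3 rose (10.3%) and 7 fell (24.1%), 2 and 4 without arrays 3, 4 and 7. Lcn2, a siderophore-binding protein, rose by 1.93 ± 0.22, with MR-Cardio ratios of −0.68, −1.56, −1.46, −0.18, −0.29, −1.47 and −1.44, in which hearts 1, 4 and 5, the 3 with most Nr3c2, were the highest. Hmox2, a haem oxygenase, rose by 0.39 ± 0.089, and Hamp, the iron hormone hepcidin that liver and heart make, fell from −2.37 ± 0.31 (SD, n = 5) to −3.52 ± 0.15 (SD, n = 7). Hamp is abundant in liver and lay below the pool, and 3 others of the 7 falls had control means under −4, so these falls need the caution given above for genes of the pool tissues.

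Some mitochondrial and proteasome genes fell by small amounts. Of 52 mitochondrial ribosomal protein genes 0 rose and 9 fell (17.3%, against 7.82% of all genes), with a median of −0.091, and of 50 proteasome genes 0 rose and 9 fell (18%, median −0.11). Mrpl24 (−0.21 ± 0.050), Mrpl3 (−0.40 ± 0.097), Psmg1 (−0.37 ± 0.079) and Psmd2 (−0.22 ± 0.049) were examples. None of either family passed without arrays 3, 4 and 7, a fit in which 580 of all 21892 genes fell. Pink1, a kinase that marks damaged mitochondria, went from 0.60 to 1.30 in controls to 0.30, 0.29, −0.28, −0.25, −0.066, 0.41 and −0.099 in MR-Cardio hearts, a difference of −0.84 ± 0.18 (SE, log2) that separated the groups. Its call too was lost without those arrays. Of 28 genes of mitochondrial dynamics and quality control 1 rose and 6 fell with them in and 0 and 0 without. Ckm, the creatine kinase of muscle, differed by −0.78 ± 0.24 with MR-Cardio ratios of 1.26, 1.70, 0.95, 0.72, 0.61, 1.94 and 1.34, and its call was lost without any one of MR-Cardio hearts 3, 4 and 5 or of controls 2, 4 and 5.

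Calls among channel and transport genes went in both directions. Of 93 Kcn potassium channel genes 9 rose (9.68%) and 6 fell (6.45%), near the 5.79% and 7.82% of all genes, 4 and 4 without arrays 3, 4 and 7. After Kcnk1, Kcng2, a modifier of voltage-gated channels, rose by 1.15 ± 0.15, but its 2 probes rose by 0.24 and 2.06. Kcnab1, an auxiliary subunit, differed by −0.69 ± 0.11. The Cacn genes, voltage-gated calcium channel subunits, had 0 rises and 4 falls among 25 (16.0%), including Cacna1s (−1.36 ± 0.36), the skeletal muscle subunit, Cacnb2 (−0.48 ± 0.13), a cardiac beta subunit, and Cacna1g (−0.62 ± 0.19), a T-type channel. The calls of these 3 genes were lost without arrays 3, 4 and 7. The 3 probes of Cacnb2 differed by −0.28, −0.028 and −1.13, so its fall came mostly from 1 probe. Among 29 genes of sodium, proton, chloride and bicarbonate transport, the classical setting of mineralocorticoid action in kidney, 2 rose (6.90%) and 6 fell (20.7%), 0 and 3 without arrays 3, 4 and 7. Those that fell included Fxyd2 (−0.52 ± 0.087), Atp1b2 (−0.44 ± 0.075) and Scnn1a (−0.72 ± 0.16), a subunit of the epithelial sodium channel, from control means of −2.99, −1.80 and −3.82. The call of Scnn1a was lost without arrays 3, 4 and 7 and after quantile normalization.

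Among secreted regulators, both Edn3 and smaller rises were found. Of 54 growth factors and secreted regulators 11 rose (20.4%, against 5.79% of all genes) and 4 fell, with a median of 0.24. Without arrays 3, 4 and 7, 2 rose and 2 fell. Besides Edn3, Fst, which encodes the activin antagonist follistatin, had MR-Cardio ratios of −2.23, −2.56, −0.50, −0.95, −0.92, −1.50 and −0.16 against −3.44 to −2.34 in controls and rose by 1.74 ± 0.33. Axon guidance genes were near the background, with 4 rises and 3 falls among 48 (3 and 1 without those arrays). Slit3, a secreted guidance cue, rose by 1.08 ± 0.18 and the ephrin receptor Epha4 differed by −1.03 ± 0.15 (SE, log2), each with groups apart. The markers of other cardiac cell types moved in some of the same hearts. Of 12 fibroblast markers 4 rose (33.3%, against 5.79% of all genes) and 0 fell (median 1.00). Without arrays 3, 4 and 7 none rose and the median was 0.36, in a fit where 456 of all 21892 genes rose. Their mean ratio lay between 0.94 and 1.62 in controls, at 1.52, 1.35 and 1.21 in MR-Cardio hearts 1, 2 and 6 and at 3.17, 2.80, 2.22 and 2.73 in hearts 3, 4, 5 and 7. Macrophage markers had 2 rises among 12 (16.7%), Ccr2 (2.01 ± 0.58) and Lgals3 (1.11 ± 0.36). Mural cell markers had 2 among 10 (20%) and endothelial markers 1 among 10 (10%). Without arrays 3, 4 and 7 none of these rises passed. In bulk tissue, more cells of a type and more RNA per cell cannot be told apart, and the part of cell makeup in the other results was not tested.

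Of the matrix, adhesion and immune families, several had more rises than falls, to be read against 5.79% and 7.82% of all genes. Counts without arrays 3, 4 and 7 are to be read against 456 rises and 580 falls of all 21892 genes. Of 44 collagen genes 6 rose (13.6%) and 1 fell (2.27%), with a median of 0.47, and 1 rose without arrays 3, 4 and 7. Col7a1, of anchoring fibrils, rose by 1.12 ± 0.18 with groups apart, and Col8a2 by 1.80 ± 0.47. Of 58 ADAM and ADAMTS proteases 8 rose (13.8%; 3 without those arrays) and none fell, for example Adam33 (0.66 ± 0.17) and the ADAMTS-like matrix protein Adamtsl5 (0.36 ± 0.076). The mean ratio of that family was higher in each MR-Cardio heart (0.36 to 0.47) than in any control (0.20 to 0.29). This was not particular to it. The means of ankyrin repeat Ankrd genes were also apart (0.41 to 0.64 against 0.26 to 0.39), as were, lower in MR-Cardio hearts, those of liver markers (−6.11 to −5.69 against −4.92 to −4.69). Of 31 integrin genes 5 rose (16.1%) and 3 fell (9.68%), 3 and 1 without arrays 3, 4 and 7, and Itgb1 (0.57 ± 0.11) and Itgb5 (0.65 ± 0.16), both beta chains that bind matrix proteins, were among the rises and lost their calls without arrays 3, 4 and 7. Of 33 chemokine genes 4 rose (12.1%), led by Cxcl5 (2.11 ± 0.46) and Cxcl1 (1.15 ± 0.30), which attract neutrophils, and none passed without arrays 3, 4 and 7. Interleukins and their receptors had 7 rises and 2 falls among 79 (8.86% and 2.53%, 6 and 1 without arrays 3, 4 and 7), near the share of rises over all genes. TNF superfamily genes had 0 rises and 1 fall among 31, and defensins 0 rises and 2 falls among 55. Il7r, a lymphocyte receptor, rose by 1.81 ± 0.35 from a control mean of −4.06, Il17d by 0.66 ± 0.10 and Il6ra by 0.60 ± 0.12.

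The changes among transcription factors were those of single genes. Of 31 cardiac developmental factors 3 rose and 1 fell (1 and 1 without arrays 3, 4 and 7). Tbx20, a T-box factor needed in adult cardiomyocytes, rose by 0.87 ± 0.17 and Prox1, a homeobox factor of heart muscle and lymphatics, differed by −0.46 ± 0.093 (SE, log2), both with groups apart and above the pool in all 12 hearts. Of 39 nuclear receptors and coregulators 5 rose (12.8%) and 3 fell (7.69%), 3 and 0 without arrays 3, 4 and 7. Nr3c2 is itself a nuclear receptor and its rise goes with the choice of mice, so this share of rises is no separate evidence about the class. Fkbp4, a chaperone partner of steroid receptors, differed by −0.65 ± 0.16, opposite to Fkbp5, a call lost without arrays 3, 4 and 7. Rgs2, a brake on Gq-coupled receptors, rose by 1.56 ± 0.36 with MR-Cardio ratios of 1.97, 0.45, 0.14, 1.35, 0.96, 0.51 and 0.97. Of 369 Zfp zinc finger genes 27 rose (7.32%) and 10 fell (2.71%), and of 1077 olfactory receptor genes 9 rose (0.84%) and 27 fell (2.51%). Without arrays 3, 4 and 7 the Zfp genes had 8 rises and 4 falls and the olfactory receptor genes 8 and 6. Among the 40 Hox genes none passed.

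Further lists are given by their rises and falls, to be read against 5.79% and 7.82% of all genes. Counts without arrays 3, 4 and 7 are to be read against 456 rises and 580 falls of all 21892 genes. Of 31 RGS proteins and phosphodiesterases 4 rose (12.9%) and 1 fell (3.23%), and without arrays 3, 4 and 7 the counts were 1 and 0. Of 21 complement genes 4 rose (19.0%) and 2 fell (9.52%), against 0 and 1 without those arrays, and of 25 hypoxia-responsive genes 4 rose (16.0%) and 1 fell (4.00%), against 2 and 0. Of 52 cytokine and growth factor receptors 8 rose (15.4%) and 3 fell (5.77%), against 3 and 1. The 341 Slc transporters rose near the background (20, 5.87%) and fell more often (46, 13.5%), against 12 and 19 without those arrays. Atrial genes had 0 rises and 4 falls among 8, lymphocyte markers 3 falls among 8, erythroid markers 2 among 5 and neutrophil markers 1 among 9, with no rise in any of these lists. Their median control ratios were −3.01, −2.56, −3.07 and −5.69, and all but the lymphocyte median lay under −3, where falls were frequent over all genes. Without arrays 3, 4 and 7 the falls were 2, 2, 1 and 1. No adipocyte marker of 7 passed.

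The 7 MR-Cardio hearts lay at different distances from the controls. The median SD over genes was 0.23 in MR-Cardio hearts and 0.20 in controls, and the SD was larger in MR-Cardio hearts for 55.3% of all genes and for 70.9% of called genes. Their root mean square distance from the control mean was 0.45 and 0.48 for hearts 2 and 6, 0.52 for heart 1 and 0.59 to 0.63 for the other 4, while single controls lay 0.39 to 0.44 from it. Of the 1267 called rises, 70.9% and 74.3% lay above every control in hearts 2 and 6, 85.8% in heart 1 and 91.0% to 94.6% in hearts 3, 4, 5 and 7. For the 1711 called falls, 66.2% and 76.0% lay below every control in hearts 2 and 6, 87.2% in heart 1 and 92.8% to 96.1% in the other 4. The fit that called these genes used all 7 hearts, so the shares describe the hearts and are no test. The first principal component of the 12 arrays, with 31.6% of the variance, placed controls at −40.6 to −26.6, hearts 2 and 6 at −6.93 and −4.92, heart 1 at 14.8 and the other 4 at 37.4 to 47.8. Of these 4, hearts 3, 4 and 7 are the arrays with negative spike-in offsets, and heart 5, at 0.23, is not, so the offset and the distance go together in part.

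**Figure D4:**
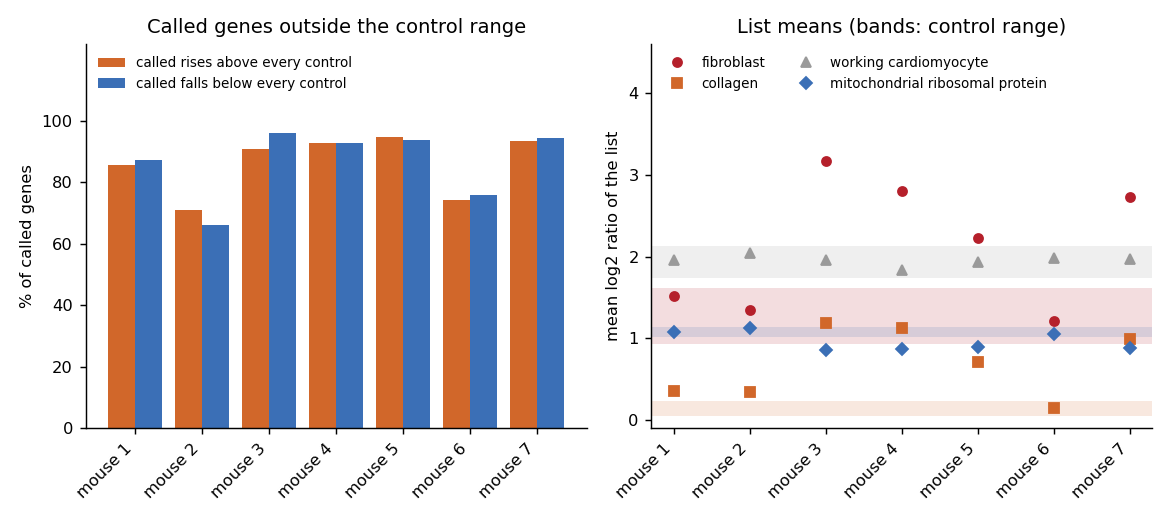
Left, the share (%) of called rises above every control and of called falls below every control in each MR-Cardio heart; right, mean log2 ratio of 4 gene lists in each MR-Cardio heart, with shaded bands for the range of the 5 controls. Hearts 2 and 6 have the lowest shares, the fibroblast mean exceeds the control range in hearts 3, 4, 5 and 7 and the collagen mean in all but heart 6, while working cardiomyocyte means stay within it in all 7.

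The order of hearts differed from that of the receptor. Nr3c2 was highest in hearts 1, 4 and 5, and hearts 3 and 7, at 2.75 and 2.49, were close to hearts 2 and 6, at 2.69 and 2.65. Mthfd2 was 3.02, 2.39, 2.18, 2.97, 3.14, 2.38 and 2.59 in hearts 1 to 7, also highest in hearts 1, 4 and 5. Of 10 transcripts set against Nr3c2, Lcn2 and Mthfd2 were the only ones with this order. Ffar4 was highest in hearts 1, 4 and 6, Sult1a1 in hearts 1, 5 and 7 and Lox in hearts 4, 5 and 7. Pearson r with Nr3c2 over the 7 hearts ran from 0.15 (Lox) to 0.91 (Mthfd2) and 0.97 (Lcn2). None of the 10 passed after adjustment, with a smallest adjusted p of 0.083 (Lcn2, exact permutation test). Without hearts 4 and 5, the 2 farthest from the median of Nr3c2, r was −0.38 for Lox, −0.28 for Tnnt3 and −0.22 for Tnni2. It stayed positive for the other transcripts. Because the Nr3c2 ratios fall into a cluster of 3 and a cluster of 4 hearts, a graded relation cannot be told apart from a difference between the clusters. Among genes over the pool in controls, the largest SDs between MR-Cardio hearts were those of Nxpe4 (2.65), the protease Tmprss4 (2.53) and the cartilage matrix protein Cilp (2.37). Cilp had 2.79, 1.36, 6.67, 6.30, 4.78, 1.12 and 6.03 in MR-Cardio hearts, against 0.080 to 4.10 in controls, and did not pass the test (adjusted p = 0.206). Its highest values were in hearts 3, 4 and 7. Tmprss4 was 2.04 and 2.16 in hearts 2 and 6 and −3.99 to −1.44 in the other 5, while the controls ran from −3.03 to 1.86. The tryptophan-degrading enzyme Ido1 stood at 5.41 in heart 6 and at −0.74 to 0.97 in the others, against −1.0 to 5.06 in controls. Atp1a4, Mcpt2, Pttg1, Phf11c and Olfr1033 had SDs of 2.25, 2.23, 2.01, 1.95 and 1.94 and also did not pass.

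The genotype difference was measured again in other mice, those given aldosterone, with 6 MR-Cardio and 5 control hearts and no mouse in common. There 5487 genes (25.1%) differed, 2336 higher (10.7%) and 3151 lower (14.4%). Of the 1267 genes that rose in untreated hearts 1249 (98.6%) had the same sign, against 44.7% of all genes with a positive difference there, and 952 (75.1%) passed. Of the 1711 that fell 1696 (99.1%) had the same sign, against 55.3% of all genes, and 1410 (82.4%) passed. No gene called in both changed in opposite directions. These shared genes made up 40.8% of the rises and 44.7% of the falls under aldosterone. The spike-in slope again ran with genotype in these arrays, at 1.00 to 1.03 against 0.964 to 0.982, so the repeat does not separate genotype from that array difference. Cited1 differed by 5.68 ± 0.33 under aldosterone, Kcnk1 by 5.06 ± 0.32, Ffar4 by 5.35 ± 0.40 and Pnmt by 3.25 ± 0.22 (SE, log2), close to the untreated values. For Nr3c2 the difference was 3.75 ± 0.35 against 2.78 untreated, Scn4b by −3.90 ± 0.64 against −2.39 and Meig1 by −4.67 ± 0.79 against −3.19. Limma called none of these changes between treatments, since 0 genes passed for the interaction, with 1197 at an unadjusted p under 0.05.

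**Figure D5:**
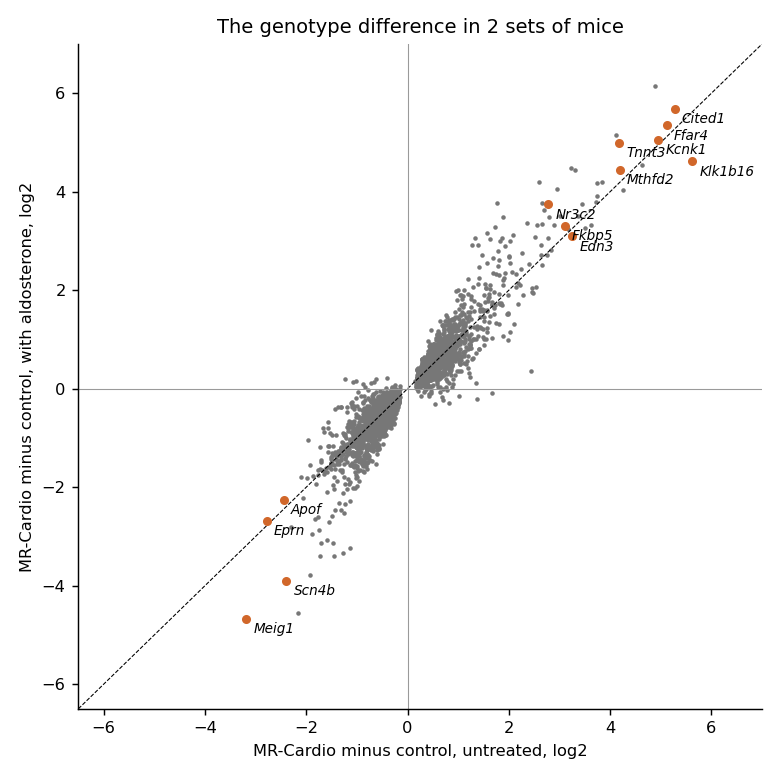
Genotype difference (MR-Cardio minus control, log2) in untreated mice (horizontal axis) and in other mice given aldosterone (vertical axis) for the 2978 genes called in untreated mice, with named genes in orange and a dashed line of equal values. Of these genes, 2945 have the same sign in both, and Cited1, Ffar4 and Kcnk1 lie near the dashed line.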

How the data were processed

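Two-colour Agilent arrays compared ventricular RNA of each of 23 mice (Cy5) with a common pool of 5 tissues (Cy3), all in the same dye orientation. The authors deposited 1 value per probe and array, a log2 ratio. The submitters' processing notes name Agilent Feature Extraction, version 10.7.3.1. The sources used here do not give the background correction or normalization. The base and sign of the log2 ratio were taken from the values (heart genes positive, liver genes negative). The table has 39485 lines. Control probes (56) were removed, 8804 probes had no gene symbol, and the 30625 with 1 symbol were averaged to 21892 genes, of which 15085 had 1 probe. Symbols came from the platform annotation, and 30331 probes matched the RefSeq table by gene number.

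All 23 arrays were fitted with limma 3.58.1 (R 4.3.3), with 1 mean per group, and MR-Cardio was contrasted with control in untreated mice, with Benjamini-Hochberg adjustment at 0.05. SE is that of the fit. Separate mice are the replicates, and array number limits the precision. Single values were tested with the exact permutation test of scipy 1.17.1, two-sided. The method was tested on simulated data. Promoters on chromosome 18 were not searched. Named genes were Nr3c2, Fkbp5 and Cited1, the 15 rises and 10 falls with the smallest p, the 30 largest rises and 15 largest falls, the 15 largest of each among genes with a control ratio over 0, the 12 with the largest SD among MR-Cardio hearts and, from each of 82 lists, up to 4 called members by p. Clone, predicted and numbered names were left out. The members, lists and rule were chosen with earlier results of these data known, and a marker's role on a list is no independent evidence. Same-numbered mice in the 2 groups were not treated as pairs. The correlations of their deviations were −0.16 to −0.0081, which shows no sign of pairing but cannot settle it. Relations of 10 transcripts to Nr3c2 among the 7 MR-Cardio hearts were tested by exact permutation of Pearson r, with Benjamini-Hochberg adjustment, although its values form clusters. Alternatives were 3 array scalings, an offset covariate, a probe choice, a fit of 12 hearts, moderation and array weights, 2 filters, a stricter threshold of 0.01, a block, each heart left out in turn and, chosen after seeing the data, the arrays with a spike-in offset over −0.1.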

Additional observations from a re-analysis of the deposited data

Results flagged for a closer look

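In groups of 5 or 7 hearts, a single heart was flagged where it stood apart from the rest of its group by more than Dixon's limit. Chance flags about 1 group in 20. Of 276 groups looked at, over 138 named genes, 16 were flagged, which is close to the share that chance gives. Control heart 1 was low for the kallikreins Klk1b16 (−4.23, next 0.61) and Klk1b26 (−3.96, next −1.99). Control heart 3 was low for Nr3c2 (0.18, next 0.47), for Tmem132b (−2.37, next −2.06) and for Tmprss4 (−3.03, next 0.56). Control heart 4 was high for the oocyte gene Oog4 (5.60, next 1.91), control heart 5 for Plg (−5.05, next −5.28), and control heart 2 was low for Il17d (−0.020, next 0.096). Among MR-Cardio hearts, heart 6 was high for Ido1 (5.41, next 0.97), heart 5 was high for Adamtsl5 (3.15, next 2.91) and low for Olfr1033 (−0.31, next 3.85), and heart 4 was high for Olfr165 (0.30, next −0.14) and low for Ddx4 (−1.0, next −0.29). Heart 7 was low for Apom (−5.46, next −5.37) and Myl7 (−6.24, next −5.79), and heart 3 for Serpina1e (−5.49, next −5.32). Klk1b16, Klk1b26, Nr3c2, Tmem132b and Olfr165 kept their calls without the heart concerned, and the calls of Oog4 and Ddx4 are given above.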

How the results depend on the processing

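Of 305 named genes that passed, 150 passed in every setting in which they were tested and 155 lost the call in at least 1, with the cause not tested beyond the fewer hearts or genes in a setting. Without the genes of lowest mean ratio (fewer genes tested) 1619 genes were called, 826 higher, 793 lower and 225 with 1 log2 unit or more, and 1298 were called the same way under aldosterone too. With only genes of control mean over 0 the counts were 1407, 589, 818, 163 and 1140. With only arrays of spike-in offset over −0.1, chosen after seeing the data, they were 1036, 456, 580, 289 and 823. At a threshold of 0.01 they were 1353, 541 and 812, and 1099 in both states. Leaving out 1 heart at a time gave 2199 to 3569 calls, 899 to 1497 higher, 1286 to 2072 lower, 417 to 640 of 1 log2 unit or more, 1821 to 2824 in both states and 0 to 0 for the interaction. Sample number as a replicate block gave 2343 calls, 1017 of them higher, and other settings stayed within 1.5 times the reported counts. Reversals were all of genes that did not pass or values near 0. With 1 heart left out, Atp1a4 ran from −0.34 to 0.69, Nxpe4 from −1.13 to 0.038 and Olfr1033 from −0.19 to 1.25. Atp1a4 turned to −0.27 without control 1, −0.34 without control 5, −0.26 without MR-Cardio heart 1, −0.19 without heart 7 and −0.27 with only the arrays of high offset. Nxpe4 turned to 0.26 with the block and 0.038 without heart 6, Olfr1033 to −0.12 with the block, −0.19 without control 4 and −0.26 with only the arrays of high offset, and Slc4a1 to 0.0035 after quantile normalization. Arrays limit ratios far from 0 most, where spike-in slope and genotype cannot be told apart.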
